A study of Mus musculus with 6 samples.

Results

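The regions described here are dense distal clusters, which are stretches of the genome in which several strongly accessible sites far from promoters lie close together in control astrocytes. They were chosen by the measured values of the GR-con libraries alone. Peaks of the 3 GR-con lists were merged into 162846 regions, and a region was kept when its strongest peak reached a fold enrichment of at least 10 in each GR-con list and its midpoint lay more than 2 kb from the transcription start site (TSS) of any protein-coding gene. Of the 34123 regions that passed the fold limit, 10491 were near promoters and 23632 were kept. Kept regions were then stitched up to a fixed limit on the gap between neighbours, which joined gaps of 12498 bp but not of 12502 bp, and a run of at least 4 kept regions was called a cluster. There were 151 clusters, which held 656 of the 23632 kept regions (2.78%). Each cluster is called here by the nearest protein-coding gene and its regions are numbered along the chromosome, which does not show that the gene is controlled by them.

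The assay was ATAC-seq, which uses the Tn5 transposase to cut and tag open DNA, on nuclei sorted from primary visual cortex (V1) of *GR*fl/fl mice at P21. In these mice *Nr3c1*, the gene of the glucocorticoid receptor (GR), is flanked by loxP sites. All animals had received an AAV2/5 vector at P0 to P1 in which the astrocyte promoter GfaABC1D drives EGFP-KASH, a nuclear envelope tag used for sorting, together with either Cre (GR-KO) or ΔCre, which lacks activity (GR-con). Each condition had 3 libraries, and each library came from 50000 sorted nuclei of V1 tissue pooled from 3 to 4 animals, so that both groups carry the floxed allele and the virus and differ in Cre activity.

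The GR is a hormone receptor that enters the nucleus when bound by glucocorticoids and binds DNA as a dimer at a palindrome of paired half-sites. Distal enhancers are bound by transcription factors and can act on genes over long distances, and groups of strong enhancers are often found around genes that are characteristic of a cell type. Accessibility at an enhancer reflects factor binding and nucleosome loss, and neighbouring enhancers can gain or lose it independently.

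The lists held 179462 to 198929 peaks and carry no read counts, so depth is unknown. In a library, a region took the value of its strongest peak: the fold enrichment over the local background, and the −log10 p of that enrichment. These were ranked within each library, turned into normal scores, and compared by limma over all 144386 regions with a peak in at least 2 libraries. At *Nr3c1*, one intronic region had a fold of 17.4, 17.4 and 14.3 in GR-con 1 to 3 and 6.68, 4.73 and 6.36 in GR-KO 1 to 3 (limma adjusted p = 0.0099 by rank of fold), and another had a peak in the GR-KO libraries only. Of astrocyte marker genes, 0 of 10 lacked a peak near the TSS in each library, with a median fold of 6.38 to 7.88, whereas 3 of 5 microglial and 2 of 4 endothelial markers lacked one in each. Of 6 oligodendrocyte markers, 3 to 4 lacked one, with a median fold of 0 to 1.2. Neuronal markers had a median fold of 5.79 to 7.12 near the TSS, and the only 2 markers of oligodendrocyte precursors had 14.5 to 16.9. The open promoters of the lists are thus not those of astrocyte genes alone, and the part of other cells in the values below was not tested.

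To show what these elements look like, the DNA around the summit is printed for 7 regions, each as 100 bases to either side of the summit on the mm10 plus strand, with bases outside the marked motifs in lower case. The first pair are the regions that both ranked lower in GR-KO and hold a full GR site, spelled here GNACANNNTGTNC, which is in capitals. They lie at chr7:80134567-80134767 in the *Sema4b* cluster, with the site at chr7:80134697-80134709, and at chr15:84639560-84639760 in the *Prr5* cluster, with the site at chr15:84639640-84639652.
Sema4b region 1: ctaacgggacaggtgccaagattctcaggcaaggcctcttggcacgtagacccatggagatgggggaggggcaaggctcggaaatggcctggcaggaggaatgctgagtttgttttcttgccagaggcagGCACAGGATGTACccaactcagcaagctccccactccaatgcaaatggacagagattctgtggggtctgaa
Prr5 region 4: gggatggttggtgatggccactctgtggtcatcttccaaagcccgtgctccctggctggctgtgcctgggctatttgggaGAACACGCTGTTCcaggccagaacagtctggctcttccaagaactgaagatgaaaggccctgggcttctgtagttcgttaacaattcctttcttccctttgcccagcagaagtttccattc
The next 3 regions had the smallest adjusted p of all cluster regions by rank of −log10 p and were added after their values were seen. They lie at chr1:155302715-155302915 (*BC034090* cluster) and chr12:8345021-8345221 (*Hs1bp3* cluster), both lower in GR-KO, and at chr5:30935173-30935373 (*Khk* cluster), which was higher. The capitals in the *Hs1bp3* region mark GR half-sites (AGAACA on either strand), which lie on opposite strands with a single base between them and in the reverse order to a full site, and the *BC034090* and *Khk* windows hold neither motif.
BC034090 region 3: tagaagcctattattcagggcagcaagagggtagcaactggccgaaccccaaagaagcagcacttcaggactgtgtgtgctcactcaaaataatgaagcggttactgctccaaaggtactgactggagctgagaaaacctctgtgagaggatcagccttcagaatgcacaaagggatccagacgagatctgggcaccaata
Hs1bp3 region 2: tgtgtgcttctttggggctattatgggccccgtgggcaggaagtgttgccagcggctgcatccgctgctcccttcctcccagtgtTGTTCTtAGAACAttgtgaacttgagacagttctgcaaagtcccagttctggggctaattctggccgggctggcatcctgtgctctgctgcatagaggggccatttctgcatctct
Khk region 4: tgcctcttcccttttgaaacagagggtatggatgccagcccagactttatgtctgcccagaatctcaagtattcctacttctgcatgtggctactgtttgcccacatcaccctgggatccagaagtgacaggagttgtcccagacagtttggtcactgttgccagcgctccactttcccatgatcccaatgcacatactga
The last pair are the regions of highest fold in the cluster of 7 regions and in the longest of the 9 clusters of 6, at chr9:61878999-61879199 (*Rplp1* cluster) and chr16:30504166-30504366 (*Tmem44* cluster), neither of which was called in either direction.
Rplp1 region 4: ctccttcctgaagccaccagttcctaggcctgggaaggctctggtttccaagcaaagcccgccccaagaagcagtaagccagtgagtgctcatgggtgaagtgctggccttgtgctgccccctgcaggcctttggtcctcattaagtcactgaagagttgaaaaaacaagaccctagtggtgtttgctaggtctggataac
Tmem44 region 1: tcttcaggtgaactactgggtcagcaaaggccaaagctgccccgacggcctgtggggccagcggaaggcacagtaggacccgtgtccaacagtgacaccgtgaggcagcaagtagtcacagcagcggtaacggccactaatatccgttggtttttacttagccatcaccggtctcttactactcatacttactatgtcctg

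Most kept regions stood alone. Of 19465 runs, 16156 were a single region, 2654 held 2 and 504 held 3, and among the clusters 110 held 4 regions, 31 held 5, 9 held 6 and 1 held 7. The member region closest to the limit had a lowest GR-con fold of 10 and the strongest distal region left out had 9.999. The largest gap inside a cluster was 12498 bp, with a median of 7681 bp, and the smallest gap at which a run ended was 12502 bp. Regions and gaps thus lay close to both sides of the limits, which were set by the rule. Whether the clusters form a class of their own was not tested.

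**Figure D1:**
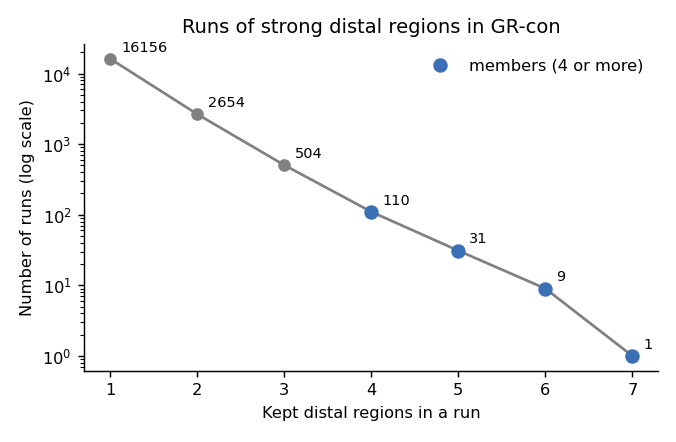
Number of runs (log scale) by the number of kept distal regions in the run. Runs of 4 or more, the 151 clusters, are in blue, and the numbers fall steadily from 16156 single regions to 1 run of 7.

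The clusters spanned a median of 27585 bp, from 13712 to 49538 bp, and their kept regions covered a median of 11.4% of the span. They lay on 20 chromosomes, with 17 on chromosome 4, 16 on chromosome 11 and 1 on the X chromosome. The nearest protein-coding TSS was a median of 20339 bp away, 20 clusters spanned a TSS, and 90 overlapped the body of a protein-coding gene. Of the member regions, 44.7% were intronic, 51.4% intergenic and 3.96% exonic, against 43.7%, 51.6% and 4.78% of the 22976 kept regions outside clusters. The regions of the clusters were a median of 696.5 bp wide, against 680 bp for kept regions outside them and 391 bp for all distal GR-con regions.

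The cluster with most regions, 7 at chr9:61856555-61900122, lay between genes nearest to *Rplp1*, a ribosomal protein gene. Region 4 was the strongest by fold, at 26.9, 24.6 and 21.8 in GR-con 1 to 3 and 26.5, 25.0 and 25.9 in GR-KO 1 to 3, and the groups overlapped. Clusters of 6 regions included those nearest to *Tmem44*, *Cdhr3*, *Hs1bp3*, *Nat10* and *Prrc1*. The *Nat10* cluster lay over *Abtb2*, and the *Prrc1* cluster over *Megf10*, a receptor by which astrocytes engulf synapses. Of these, the mean score of the *Hs1bp3* and *Prrc1* clusters was below every GR-con library in every GR-KO library by both measures. For the *Prrc1* cluster the mean −log10 p was 101, 100.5 and 96.9 in GR-con 1 to 3 and 81.8, 81.6 and 75.2 in GR-KO 1 to 3. It held no region called in either direction, and the score differences of its regions by −log10 p ran from −0.228 to 0.092.

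The nearest genes had varied roles, and none was on the gene lists used for astrocyte identity or GR response, which are short and do not hold every such gene. Within 100 kb of a cluster lay 1 of 14 astrocyte transcription factor genes (*Emx2*), 2 of 25 astrocyte function genes (*Aldh1l1* and *Aldoc*), 0 of 10 GR-activated and 0 of 8 GR-repressed genes that the study named, and 0 of 15 glucocorticoid-inducible genes. Over all 21842 protein-coding genes the share was 2.19%. The study chose its genes on samples of the same design, so those counts are not independent of it. The cluster near *Aldh1l1*, which encodes a folate enzyme used as an astrocyte marker, overlaps that gene but is nearest to *Klf15*, a transcription factor gene known to respond to glucocorticoids that is not on the list used, and had a mean −log10 p of 258 ± 10.96 (SD, n = 3) in the GR-con libraries and 273 ± 20.3 (SD, n = 3) in those of GR-KO, with overlapping libraries.

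Grouped after the clusters were known, 16 clusters lay nearest to genes of transcription factors and coregulators, among them *Klf15*, *Fosb*, *Jdp2*, *Arntl*, *Tcf7l2* and *Xbp1*. Of these 16, by rank of −log10 p, 1 was lower in every GR-KO library than in every GR-con library, 1 was higher and 14 overlapped, while by rank of fold 2 were lower and 2 higher. Another 10 lay nearest to adhesion and cytoskeleton genes such as *Vcl* and *Pxn*, of which 2 were lower, 1 was higher and 7 overlapped by −log10 p, but 0 were lower and 3 higher by fold. Of 14 clusters nearest to genes of metabolism and transport, including *Hk1*, *Dhrs3*, *Lipg* and *Slco2b1*, 5 were lower, 1 was higher and 8 overlapped, with the same numbers by fold. The 7 clusters nearest to secreted signals and guidance cues, including *Ptn*, *Sdc3* and *Sema4b*, had 2 lower and 5 overlapping by −log10 p and 1 lower and 1 higher by fold, and the 7 nearest to ion channels and receptors had 1 lower and 1 higher by −log10 p and 1 lower by fold. Over all 151 clusters these numbers were 37 lower and 9 higher by −log10 p (24.5% and 5.96%), and 24 lower and 13 higher by fold (15.9% and 8.61%). The mean scores of the 504 runs of only 3 kept regions, chosen by the same limit on GR-con fold but too short to be clusters, gave 23.6% lower and 8.33% higher by −log10 p and 17.7% and 6.94% by fold, so the larger number of lower clusters is not read as a result about them.

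The clusters kept their peaks in GR-KO. Each of the 656 regions (100%) had a peak in all 3 GR-KO lists, as did 99.9% of kept distal regions outside clusters and 67.4% of all distal GR-con regions. A fold of at least 10 in each GR-KO list was held by 573 of the 656 (87.3%) and by 87.9% of kept regions outside clusters. The median fold over cluster regions was 15.1, 15.2 and 14.1 in GR-con 1 to 3 and 14.9, 14.7 and 14.5 in GR-KO 1 to 3, and the ranges overlapped. The median −log10 p was 145, 142 and 141 in GR-con 1 to 3 and 132, 135 and 126 in GR-KO 1 to 3, and here every GR-KO library was below every GR-con library. The same held outside clusters, where it was 126, 123 and 124 in GR-con and 117, 115 and 110 in GR-KO. These −log10 p medians are not comparable between libraries of unequal depth. As a percentile within the library, the median over cluster regions was 85.9, 85.7 and 85.6 in GR-con and 85.2, 85.5 and 85.1 in GR-KO, a narrow difference in which the groups did not overlap. Kept regions outside clusters had 83.8, 83.7 and 83.8 in GR-con and 83.5, 83.3 and 83.3 in GR-KO, which did not overlap either. Both kinds of region were chosen on high GR-con values, and the part of depth in these differences was not tested.

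On the rank scale the shift was small and depended on which libraries chose the members. The median score difference (GR-KO minus GR-con, rank of fold) over cluster regions was −0.0156, against −0.0262 over kept regions outside clusters and 0.0106 over all regions tested. That difference carries the choice of members, since each was selected on high values in the GR-con libraries. When the rule was applied to 2 GR-con libraries and the one left out gave the control value, the difference was 0.0096, −0.0078 and 0.0122 with GR-con 1, 2 and 3 left out, against 0.0207, 0.0170 and 0.0118 over all regions and −0.0107, −0.0068 and −0.00051 over kept regions outside clusters in the same comparison. When the rule was applied to the GR-KO lists it was 0.0268. By rank of fold, the sign of the median thus changed with the libraries that chose the members. By rank of −log10 p the median was −0.0246 with the rule as applied, −0.0029, −0.0084 and −0.0048 with GR-con 1, 2 and 3 left out of the choice and used as the control, and 0.0197 with members chosen on the GR-KO lists, a check chosen after seeing the data. The values with a library left out stood beside 0.0062, 0.0081 and −0.0037 over all regions, and beside −0.0122, −0.0028 and −0.0122 over kept regions outside clusters.

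**Figure D2:**
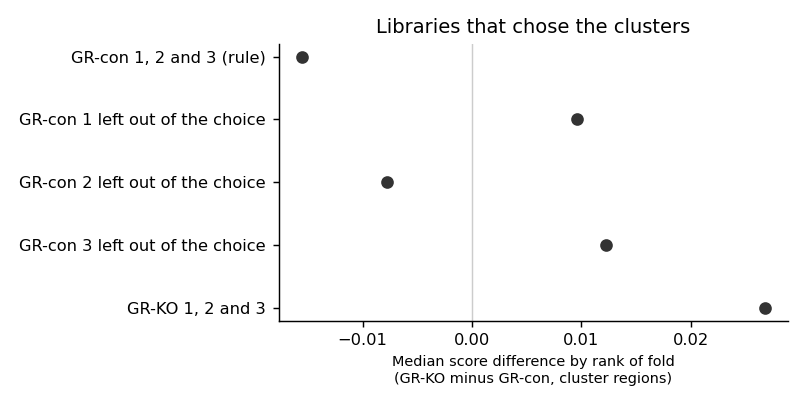
Median score difference by rank of fold (GR-KO minus GR-con) over cluster regions, by the libraries that chose the clusters; where a GR-con library was left out of the choice, it alone gave the control value. The value was −0.0156 with the rule as applied and 0.0268 with clusters chosen on the GR-KO lists.

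Differences appeared at single regions within clusters. By rank of −log10 p, 13 cluster regions (1.98%) ranked lower in GR-KO and 7 (1.07%) higher at a limma adjusted p under 0.05, against 1.00% and 0.918% of all regions tested and 2.90% and 1.61% of kept distal regions outside clusters. The GR-con values that selected the members are one arm of this test, so an excess of lower over higher calls is in part built in, also outside clusters, and is not read as a result about the members. By rank of fold, 2 ranked lower and 1 higher, against 0.209% and 0.143% of all regions tested and 0.627% and 0.113% of kept regions outside clusters. All GR-KO libraries were below all GR-con libraries at 99 of the 656 regions (15.1%; 9.28% of all regions tested) by −log10 p and at 72 (10.98%; 8.23%) by fold, and above them at 54 (8.23%; 10.7%) and 55 (8.38%; 11.2%). Kept distal regions outside clusters, selected by the same limit, gave 14.98% below and 9.19% above by −log10 p and 12.8% below and 7.80% above by fold, so these shares are not particular to clusters. An exact permutation test of one region, 3 libraries against 3, cannot go below p = 0.1, so the calls rest on limma's pooling of the spread over regions. Without the variance trend limma called 4 cluster regions lower and 1 higher by −log10 p. Leaving out one library gave 4 to 11 lower and 1 to 4 higher; the lower count was 5 without GR-con 1, 4 without GR-con 2, 6 without GR-KO 2 and 7 without GR-KO 3, and the higher count was 4 or less without any one library.

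The 13 regions that ranked lower lay in 13 different clusters, and the 7 that ranked higher in 7 others. By this measure no cluster held 2 regions lower, or regions called in both directions. The clusters with a lower region were nearest to *BC034090*, *Hs1bp3*, *Lipg*, *Sema4b*, *Smlr1*, *Cpvl*, *Prr5*, *Spaca3*, *Rab4a*, *Foxl1*, *Fam167a*, *Eif3h* and *Smurf1*, and those with a higher region to *Khk*, *Rtn1*, *Prkag2*, *Car8*, *Ranbp3l*, *Tbc1d22a* and *Cited4*. In each of these regions the strongest fold and the strongest −log10 p came from the same peak in all 6 libraries. Without the variance trend the lower calls near *BC034090*, *Hs1bp3*, *Lipg* and *Sema4b* were kept and the other 9 were lost (limma adjusted p = 0.131 to 0.371). The *Fam167a* and *Eif3h* calls were also lost without any one library (0.0582 to 0.171), and those of *Foxl1*, *Smurf1* and *Spaca3* were kept without GR-con 3 alone. The *Cpvl* call was lost without GR-con 1 or GR-con 2 (0.0979 and 0.0836) and the *Smlr1* call without GR-con 2 (0.0626). With the replicate block the *Foxl1*, *Rab4a*, *Eif3h*, *Fam167a* and *Smurf1* calls were lost (limma adjusted p = 0.059 to 0.131).

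**Figure D3:**
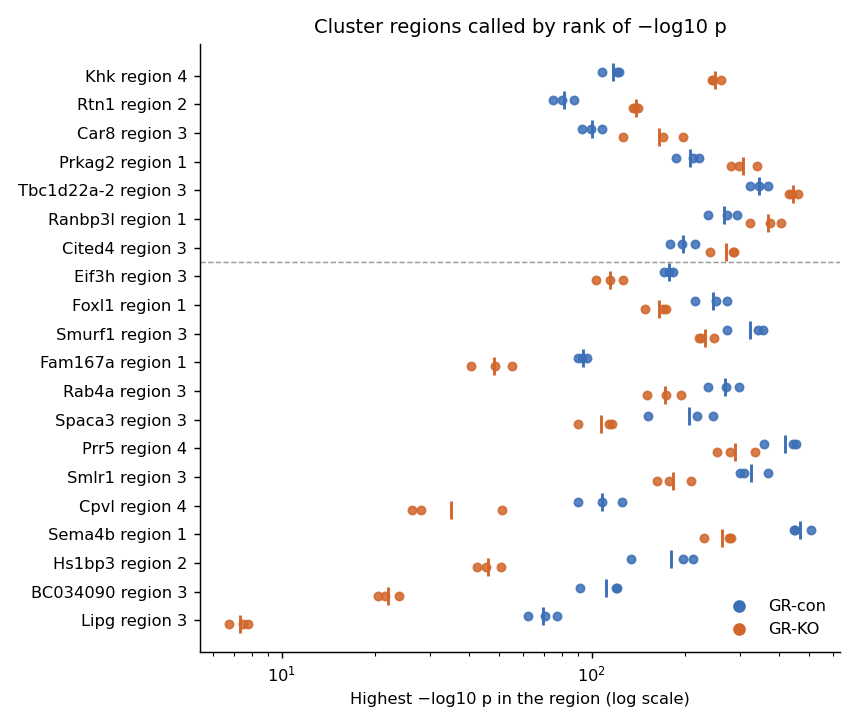
Highest −log10 p (log scale) of the 13 cluster regions that ranked lower in GR-KO (below the dashed line) and the 7 that ranked higher (above it), in each GR-con (blue) and GR-KO (orange) library; vertical ticks are means. Names give the nearest gene of the cluster and the number of the region in it, and in each region the groups do not overlap.

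The widest change was in the cluster nearest to *Lipg*, which encodes endothelial lipase. Region 3, at chr18:74901421-74901924 between genes, had a fold of 13.2, 13.0 and 11.9 in GR-con 1 to 3 and 3.79, 3.79 and 3.55 in GR-KO 1 to 3. Its −log10 p was 76.9, 70.5 and 62.0 in GR-con and 7.79, 7.51 and 6.75 in GR-KO. The peak was small but present in every GR-KO library, and the score fell by 1.06 (standard error 0.116, limma adjusted p = 4.9e-05) by −log10 p and by 1.10 (standard error 0.0846, limma adjusted p = 0.0030) by fold. The call by fold was lost without GR-con 1 or GR-con 2 (limma adjusted p = 0.0633 and 0.0651) and with the replicate block (0.0591). The call by −log10 p was kept without any one library and with the block. The other 3 regions of the cluster had score differences by −log10 p of 0.053, −0.104 and 0.097 and did not pass the test.

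The *BC034090* cluster lies in introns of *Xpr1*, a phosphate exporter gene. Region 3, at chr1:155302620-155303190, had a −log10 p of 119.8, 120.9 and 91.6 in GR-con 1 to 3 and 20.5, 23.8 and 21.5 in GR-KO 1 to 3, and a fold of 12.05, 12.47 and 10.6 against 5.47, 5.75 and 5.44. It was, with the *Lipg* region, one of 2 that ranked lower by both measures (limma adjusted p = 2.8e-05 by −log10 p and 0.0209 by fold). Its call by fold was lost without any one library (limma adjusted p = 0.0614 to 0.15) and with the replicate block (0.136). Its call by −log10 p was kept without each library and with the block.

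In the *Hs1bp3* cluster region 2, at chr12:8344656-8345615, had a −log10 p of 212, 196 and 134 in GR-con 1 to 3 and 42.7, 45.5 and 50.9 in GR-KO 1 to 3 (limma adjusted p = 3.4e-05). Its fold was 14.2, 13.5 and 10.8 in GR-con and 7.07, 7.25 and 7.74 in GR-KO, which missed the threshold by rank of fold (limma adjusted p = 0.0561). The strongest region of that cluster, region 4, had a −log10 p of 449 ± 30.6 (SD, n = 3) in GR-con libraries and 437 ± 51.9 (SD, n = 3) in GR-KO. Regions 3 and 6 also had a lower −log10 p in every GR-KO library than in every GR-con library without passing the test (limma adjusted p = 0.142 and 0.648), and regions 1 and 5 overlapped between groups, as did the strongest.

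The *Sema4b* cluster, nearest to a gene for a semaphorin, a family of axon guidance cues, was lower at region 1, at chr7:80134398-80135265. The −log10 p there was 510, 451 and 449.8 in GR-con 1 to 3 and 231, 277 and 280.1 in GR-KO 1 to 3 (score difference −0.67, limma adjusted p = 7.8e-05). The fold was 20.6, 19.9 and 20.2 against 17.0, 20.3 and 18.7, and overlapped (limma adjusted p = 0.57). The *Prr5* cluster, nearest to a gene for a subunit of mTOR complex 2, was lower at region 4, at chr15:84639143-84640149, with a −log10 p of 454, 446 and 359 in GR-con and 336, 279 and 253 in GR-KO (limma adjusted p = 0.0093), and a fold of 13.0, 12.8 and 12.1 against 12.9, 11.1 and 10.7. The *Prr5* call was lost without GR-con 1, GR-con 2, GR-KO 2 or GR-KO 3 (limma adjusted p = 0.0918 to 0.146) and without the variance trend (0.227), and the *Sema4b* call was kept in each of these fits. At both regions the evidence for the peak fell while its fold over the local background overlapped between groups.

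Of the regions that ranked higher by −log10 p, region 4 of the *Khk* cluster had the largest score difference. *Khk* encodes ketohexokinase, which phosphorylates fructose. The region, which overlaps an exon at chr5:30934831-30935724, had a −log10 p of 108, 122 and 120.04 in GR-con 1 to 3 and 260.02, 245 and 244 in GR-KO 1 to 3 (score difference 0.51, standard error 0.0544, limma adjusted p = 3.6e-05). Its fold was 12.2, 14.6 and 13.2 in GR-con and 17.6, 18.5 and 17.3 in GR-KO (limma adjusted p = 0.0717). In the *Rtn1* cluster, within a gene of the reticulon family of endoplasmic reticulum proteins, region 2 had a −log10 p of 75.0, 87.8 and 80.3 in GR-con and 138, 141 and 136 in GR-KO. Region 1 of the *Prkag2* cluster, in an intron of the gene for a regulatory subunit of AMPK, had 213, 221 and 187 in GR-con and 281, 340 and 297 in GR-KO. The *Rtn1* call was lost without GR-con 1 (limma adjusted p = 0.0633), and the *Prkag2* call without any one library but GR-KO 1 (0.0696 to 0.116), and both were lost without the variance trend (0.127 and 0.241). The other 4, nearest to *Car8*, *Ranbp3l*, *Tbc1d22a* and *Cited4*, had score differences of 0.24 to 0.32, and all 4 calls were lost without the variance trend (limma adjusted p = 0.206 to 0.36). The *Tbc1d22a* and *Cited4* calls were also lost without any one library, the *Car8* call was kept without GR-KO 1 alone and the *Ranbp3l* call without GR-KO 3 alone. With the replicate block the *Ranbp3l*, *Tbc1d22a* and *Cited4* calls were lost (limma adjusted p = 0.0608, 0.0834 and 0.123), and the other higher calls by −log10 p were kept.

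The *Rab4a* cluster, nearest to a gene for an endosomal GTPase, held one region called lower by −log10 p and one called higher by fold. Region 3 ranked lower by −log10 p, with 298, 271 and 237 in GR-con 1 to 3 and 173, 151 and 194 in GR-KO 1 to 3 (limma adjusted p = 0.0200). This call was kept without GR-KO 3 but lost without any other one library (limma adjusted p = 0.0633 to 0.183) and without the variance trend (0.304). Region 4, the next along the chromosome, was the single region that ranked higher by fold, with 11.05, 11.5 and 12.1 in GR-con and 21.6, 21.02 and 20.7 in GR-KO (limma adjusted p = 0.0030). With the replicate block the call by fold was lost (limma adjusted p = 0.0573), and it was kept without any one library. The −log10 p of region 4 was 202, 195 and 190 in GR-con and 228, 199 and 207 in GR-KO, which overlap (limma adjusted p = 0.61). The higher fold thus came without a change in −log10 p beyond the spread, although both are set against the local background of the same library.

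**Figure D4:**
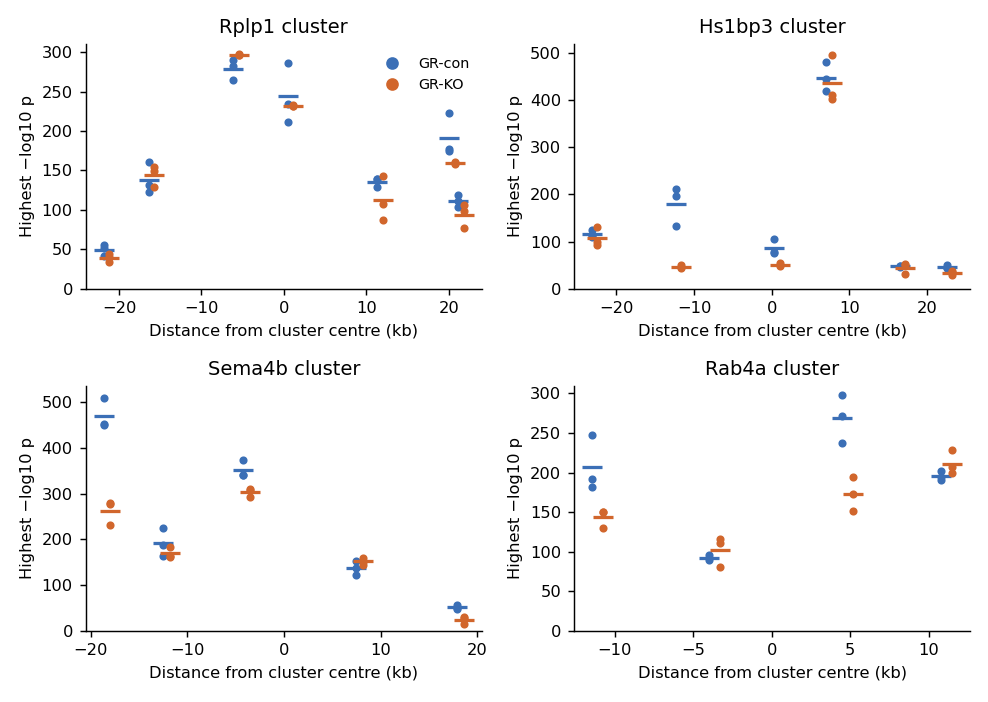
Highest −log10 p of each region of 4 clusters against its distance from the cluster centre (kb), in each GR-con (blue) and GR-KO (orange) library; horizontal bars are group means and the groups are drawn side by side at each region. Region 2 of the *Hs1bp3* cluster and region 1 of the *Sema4b* cluster passed the test as lower in GR-KO. Regions 3 and 6 of the first and 3 and 5 of the second were also below in every GR-KO library without passing it, and their other regions overlap.

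Little of the variation in measured score differences lay between clusters. The error of each difference lowers this share, and it was not set beside that of other groups of regions. How far regions of a cluster change together is therefore not decided by it. Of the variance of the score difference among cluster regions, the share that lay between clusters (intraclass correlation) was 0.0282 by fold and 0.0823 by −log10 p, as a description over 656 regions that share libraries. The 20 clusters with a called region by −log10 p held 67 other regions, of which 46 had a score difference of the same sign as the called region, between −0.327 and 0.219. Of all cluster regions 58.8% had a difference below 0, and so had the means of 93 of the 151 clusters, so a shared negative sign is common at the outset. With the called region left out, the mean difference of the rest was below 0 in 12 of the 13 clusters with a lower region, but between −0.113 and 0.015. In the 7 clusters with a higher region it was below 0 in 4, between −0.120 and 0.072.

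Averaged over its regions, a cluster had a lower mean score in every GR-KO library than in every GR-con library in 24 cases by fold and 37 by −log10 p, and a higher one in 13 and 9, where the lower share (15.9% and 24.5%) stood beside 17.7% and 23.6% of runs of 3 kept regions. Of the clusters, 18 were lower and 6 higher by both measures, which come from the same peak lists. No such joint number was taken for shorter runs, so these are not read as a result about the clusters. The mean differences ranged from −0.255 to 0.235 by fold and from −0.253 to 0.162 by −log10 p. The lowest by fold were the *Lipg*, *BC034090*, *Pef1*, *Slco2b1*, *Ankrd33* and *Ube2ql1* clusters, all of which were also lower by −log10 p. The *Pef1* cluster, 6 regions mostly in introns of the collagen gene *Col16a1*, had a mean fold of 16.8, 14.9 and 15.4 in GR-con 1 to 3 and 13.6, 13.8 and 13.2 in GR-KO 1 to 3, with no region called. The *Slco2b1* cluster, in the gene of an organic anion transporter, had 17.1 ± 0.757 (SD, n = 3) in GR-con libraries and 14.9 ± 0.387 (SD, n = 3) in GR-KO.

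The highest by fold were the *Rab4a*, *Vcl*, *Sh3gl2*, *Cdh26*, *Spaca3* and *Itpkb* clusters, and these were less alike in the other measure. The *Sh3gl2* and *Itpkb* clusters, near genes for an endocytic protein and an inositol phosphate kinase, were also higher by −log10 p, the *Vcl* and *Cdh26* clusters overlapped, and the *Rab4a* and *Spaca3* clusters were lower. The *Vcl* cluster, in introns of the gene for the adhesion protein vinculin, had a mean fold of 14.6 ± 0.849 (SD, n = 3) in GR-con libraries and 15.9 ± 0.579 (SD, n = 3) in GR-KO. The highest by −log10 p was the cluster nearest to *Limd1*, named after its value was seen, with 265 ± 19.3 (SD, n = 3) in GR-con libraries and 320 ± 29.4 (SD, n = 3) in GR-KO. No test was run on cluster means, which average regions chosen for high GR-con values.

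**Figure D5:**
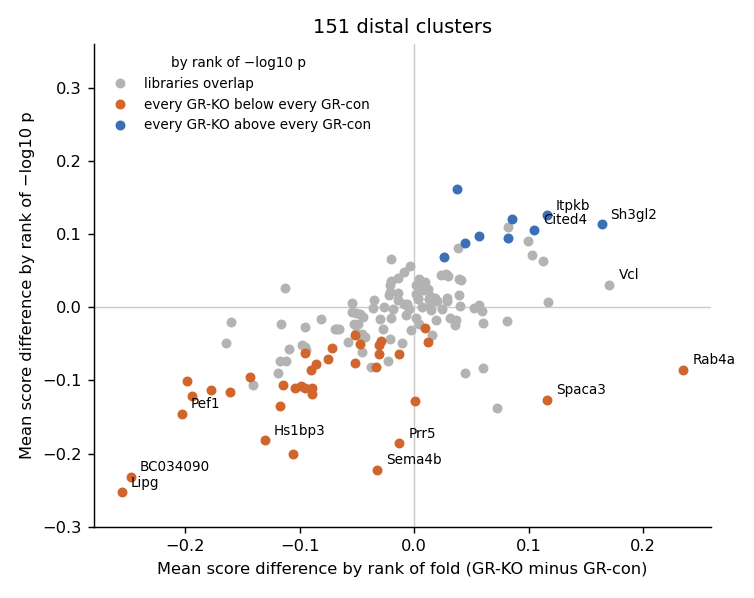
Mean score difference of each of the 151 clusters (GR-KO minus GR-con) by rank of fold and by rank of −log10 p, coloured by whether every GR-KO library lies below (orange, 37) or above (blue, 9) every GR-con library by −log10 p or the libraries overlap (grey, 105). *Lipg* and *BC034090* are lowest in both, and *Rab4a* and *Spaca3* have mean differences above 0 by fold and below 0 by −log10 p.

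The DNA of the regions was searched for 8 motifs on both strands within 100 bases of the summit. The full GR site was in 3 of the 656 cluster regions (0.457%), against 0.753% of kept distal regions outside clusters and 0.744% of all distal GR-con regions. Of these 3, 2 are the *Sema4b* and *Prr5* regions printed above, both lower in GR-KO by −log10 p, and the other is region 6 of the *Nat10* cluster, with a −log10 p of 175, 157 and 208.1 in GR-con 1 to 3 and 180, 159 and 154 in GR-KO 1 to 3 (limma adjusted p = 0.86). The full site was thus in 2 of the 13 lower regions, 0 of the 7 higher and 1 of the 636 not called, numbers too small for more than a description. The half-site AGAACA, which overlaps some full sites, was in 6 of the 13 lower, 1 of the 7 higher and 103 of the 636 not called, and in 16.8% of cluster regions, 18.7% of kept regions outside and 19.7% of all distal regions.

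The letters searched for the other factors were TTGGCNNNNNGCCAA for NFI, TGANTCA for AP-1, CATTGT for SOX, GGAATG for TEAD, TAATTA for LHX and CAGCTG for the E-box. The E-box was in 21.04% of cluster regions, 17.4% of kept regions outside and 17.0% of all distal regions. The SOX letters were in 7.47%, 9.93% and 10.9%, the LHX letters in 4.57%, 6.67% and 7.02%, and the AP-1 letters in 5.18%, 6.02% and 6.94%. TEAD letters were near equal, at 12.3%, 11.8% and 12.1%, and the full NFI site was in 1 cluster region. Split by call, the E-box was in 5 of the 13 lower regions, 3 of the 7 higher and 130 of the 636 not called. A larger share among lower regions than among those not called was thus not limited to the GR letters. These numbers too are small and only a description. Cluster regions were richer in G and C, with a median of 53.7% against 51.2% and 49.8%, and the letters that were scarcer in them are rich in A and T. Among kept regions the GC median was 50.7% in runs of 1, 51.7% in runs of 2 and 52.7% in runs of 3. The part of base composition in these shares was not tested.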

How the data were processed

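Per the labels, ATAC-seq libraries of V1 astrocyte nuclei from P21 mice were mapped to mm10. The authors ran the ENCODE pipeline for ATAC-seq and deposited, for each of 6 libraries, a list of peaks called on that library alone. Each deposited peak has a score capped at 1000, a fold enrichment (a ratio over the local background of the library), and the −log10 of its p-value and q-value. The lowest deposited −log10 p was 2.00 in each list. Peaks that share an interval but differ in summit have lines of their own. The lists hold no read counts, so depth and counting intervals are unknown and the count test of the study (edgeR) could not be run here.

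Regions were the merged GR-con intervals plus the merged GR-KO intervals that overlapped none. A region took the highest fold and the highest −log10 p of the peaks that overlapped it, and 0 without a peak. Of 189021 regions, 144386 had a peak in at least 2 libraries. For these, within-library ranks became normal scores, which limma 3.58.1 (R 4.3.3) compared without a block and with a trend of the variance, with Benjamini-Hochberg adjustment over all these regions and a threshold of 0.05. All 656 member regions were among them. The step was tested on simulated data. TSSs and gene bodies were from GENCODE M21 and sequences from the RefSeq copy of GRCm38, read with pysam 0.24.0 in Python 3.11.15 (pandas 2.3.3, numpy 2.4.6, scipy 1.17.1).

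The rule, the gene lists and the tests were chosen with earlier results of these data known. Named were the 6 clusters with most regions (ties by longer span), the 6 lowest and 6 highest by mean score difference (rank of fold), up to 10 clusters per direction and measure with a called region, and clusters nearest to a listed gene, of which there were 0. The other 3 clusters with a lower region by −log10 p were named after their values were seen. Where 2 clusters share a nearest gene, as at *Cdh26* and *Tbc1d22a*, the text means the second along the chromosome. Each library pools several animals, so p-values measure the spread between pools. The replicate numbers were not shown to pair the libraries: deviations of same-numbered libraries from their group means correlated at 0.031, −0.0020 and 0.026 by fold and 0.034, −0.0030 and 0.028 by −log10 p. By fold, GR-con 1 with GR-KO 3 gave −0.029 and GR-con 3 with GR-KO 1 gave −0.030. Correlations this small cannot decide whether the libraries were paired. Alternatives were other limits of the rule, peak filters, region definitions, a replicate block, no variance trend, a stricter threshold and leaving out each library.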

Additional observations from a re-analysis of the deposited data

How the results depend on the processing

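The number of clusters followed the limits of the rule. It was 443 with a minimum fold of 8 and 35 with 12, 69 with gaps of up to 10 kb and 250 with 15 kb, 655 with at least 3 regions and 41 with at least 5, 95 when the TSS of any annotated gene counted, and 166 to 230 without one GR-con library, the highest without GR-con 3. Regions ranked lower by fold (2) became 0 with the replicate block, 1 at an adjusted p of 0.01 and 0 to 1 without one library, and the 1 region ranked higher became 0 with the block. Regions ranked lower by −log10 p (13) became 20 without the filter on libraries, 8 with the block, 4 without the variance trend, 7 at 0.01 and 4 to 11 without one library. Those ranked higher (7) became 4 with the block, 1 without the variance trend, 2 at 0.01 and 1 to 4 without one library. The replicate numbers were not shown to pair the libraries, and not every library correlated best with its own number. The share of cluster regions with a peak in all GR-KO lists stayed at 100% or, with members chosen without one GR-con library, at 99.9 to 100%. The median score difference (−0.0156) was −0.00966 when the summit had to lie in the region, 0.0268 with members chosen on the GR-KO lists, −0.0246 by rank of −log10 p and −0.0205 to −0.0175 without one GR-KO library, and it was −0.0078 to 0.0122 when one GR-con library was left out of the choice of members and alone gave the control value. Chosen after seeing the data, the same by rank of −log10 p was −0.0029, −0.0084 and −0.0048 when GR-con 1, 2 or 3 was left out of the choice and alone gave the control value, and 0.0197 with members chosen on the GR-KO lists. Region 3 of the *Smlr1* cluster, with no call by rank of fold, ranged from −0.208 to 0.0491 by that measure without one library and was above 0 without GR-KO 2 and without GR-con 2 (0.0394). Over the 21 called regions and both measures, 441 values kept their direction and side of the threshold, 101 no longer passed it, 2 newly passed it and 2 reversed. The 441 include regions that did not pass by that measure in the main fit and stayed so. They are therefore not a number of calls kept. The cause of these changes was not tested. Without read counts, changes in regions of low signal cannot be told from differences in depth.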

Other observations

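The same rule applied to the GR-KO lists gave 141 clusters with 601 regions, all of which had a peak in each GR-con list. Of the 151 GR-con clusters, 97 (64.2%) overlapped one of these, and 97 of the 141 (68.8%) overlapped a GR-con cluster. Most of the 54 GR-con clusters without a counterpart missed it by a single region, since 40 of them held 3 kept regions in the GR-KO lists, 5 held 2, 7 held 4 and 2 held 5. Of the 601 regions of the GR-KO clusters, 535 (89.0%) reached a fold of 10 in each GR-con list, close to the 87.3% found the other way round. Among the 44 clusters formed on the GR-KO lists alone, one at chrX:140491880-140521027 lay nearest to *Tsc22d3*, which encodes the glucocorticoid-induced leucine zipper. One at chr2:167746832-167778143 lay nearest to *Cebpb*, which like *Tsc22d3* is on the list of glucocorticoid-inducible genes. Another at chr19:36666170-36706463 lay nearest to *Ppp1r3c*, a glycogen-targeting subunit of protein phosphatase. All were named after the list was seen. A cluster can miss the rule by a single region, so its absence in GR-con does not show that the locus was more open in GR-KO.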
